A study of Rattus norvegicus with 2 samples.

Results

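Transcripts of 10 Kruppel-like factors, KLFs, were described in rat oligodendrocyte precursor cells (OPCs) that had been made to differentiate with or without knockdown of the chaperone HSC70. The genes were chosen by name, as members of the family other than Klf9: Klf2, Klf3, Klf4, Klf5, Klf6, Klf7, Klf10, Klf13, Klf15 and Klf16. Each was found as 1 row among the 18049 rows of the gene table. OPCs are the cycling progenitors of the oligodendrocytes, which make myelin. Per the labels, wild type OPCs were immunopanned from the cortex of rat pups at postnatal days 2 to 4 on dishes coated with antibodies to GalC and A2B5. They were electroporated with a scrambled control siRNA (siSCR) or with an siRNA to Hsc70 (siHsc70), and both groups were then moved to a medium that had T3, a thyroid hormone, at 60 nM and lacked PDGF-AA, bFGF and NT3. They were sequenced at day 2 of T3, as immature oligodendrocytes per the design text. Both groups therefore share the electroporation and the hormone, and a single siRNA sequence stands for the knockdown. That sequence is shown because every difference below is between cells with and without it.
siHsc70: tcatgactgtcctcatcaa

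KLFs bind GC-rich DNA and CACCC boxes through C2H2 zinc fingers at the end of the protein, and they differ mainly in the partners that the rest of the protein recruits. KLF3, with KLF8 and KLF12, binds the corepressor CtBP. KLF2, KLF4, KLF5, KLF6 and KLF7 are mostly activators that can recruit acetyltransferases. KLF10, KLF13 and KLF16, with KLF9, KLF11 and KLF14, bind the corepressor SIN3A, and KLF15 stands apart from these groups as a factor of amino acid and lipid metabolism that glucocorticoids induce. In oligodendrocytes, KLF9 is known as a gene induced by thyroid hormone, and KLF6 as a factor needed for differentiation and myelination.

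Each group is 1 library, so that differences below describe these libraries and no test between the groups was possible. Total estimated counts were 19085626 in siSCR and 18130817 in siHsc70. Hspa8, the gene of HSC70, was at 1399 CPM (normalised counts, scaled to one total per library) in siSCR against 507 CPM in siHsc70, so that the lower level is in the library labelled as the knockdown. Markers of the labelled cell type were present in both libraries: 5 oligodendrocyte genes (Mbp, Mag, Cnp, Mobp and Mog) summed to 3719 CPM in siSCR and to 812 CPM in siHsc70, and 5 OPC genes (Pdgfra, Cspg4, Sox10, Olig2 and Gpr17) to 1730 and 657 CPM. The 5 astrocyte genes went both ways: Gfap, at 1416 and 667 CPM, and Aqp4 were at least 2-fold lower in siHsc70, whereas Aldh1l1, Gja1 and Slc1a3 had ratios of siHsc70 to siSCR of 1.61, 1.41 and 1.07. The sum of the 5 was 3273 and 2673 CPM, and their median log2 difference was that of Slc1a3, 0.098, or -0.025 with the deposited TPM. The 5 neuronal genes (Rbfox3, Tubb3, Dcx, Snap25 and Syt1) summed to 146 and 124 CPM and also went both ways, with Dcx at 33.2 and 6.23 CPM and Snap25 at 10.0 and 20.1 CPM. The 7 fibroblast and mural genes summed to 40.6 and 101 CPM. In bulk RNA, fewer cells of a type and less RNA per cell cannot be told apart.

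Promoter sequences bear on the family because KLFs can bind the CACCC boxes of other KLF genes. Windows of 300 bases, from 250 before to 50 after the gene start, came from RefSeq on the rat build GRCr8. They matched 6 of the 10 genes by gene ID: Klf3, Klf4, Klf5, Klf6, Klf7 and Klf15. The unmatched genes were Klf2, Klf10, Klf13 and Klf16. The windows of Klf3 (chr14:43850777-43851076, minus strand), Klf5 (chr15:82471831-82472130, plus strand) and Klf15 (chr4:124522765-124523064, plus strand) are shown. Klf3 had the most CACCC boxes, and Klf5 and Klf15 were members with opposite differences between the libraries. Capitals mark each CACCC, which reads GGGTG where it lies on the other strand, and each GGGCGG.
Klf3: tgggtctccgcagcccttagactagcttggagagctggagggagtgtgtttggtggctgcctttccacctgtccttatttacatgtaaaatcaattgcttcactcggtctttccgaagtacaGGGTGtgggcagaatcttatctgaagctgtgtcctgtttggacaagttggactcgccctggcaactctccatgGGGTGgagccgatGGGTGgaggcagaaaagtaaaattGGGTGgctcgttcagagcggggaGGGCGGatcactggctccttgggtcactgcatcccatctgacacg
Klf5: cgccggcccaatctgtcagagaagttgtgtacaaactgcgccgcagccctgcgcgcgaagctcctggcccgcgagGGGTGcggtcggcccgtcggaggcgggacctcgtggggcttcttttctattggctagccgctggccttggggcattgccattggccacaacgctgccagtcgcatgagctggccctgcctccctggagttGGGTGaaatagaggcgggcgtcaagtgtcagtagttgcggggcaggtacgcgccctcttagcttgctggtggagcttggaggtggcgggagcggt
Klf15: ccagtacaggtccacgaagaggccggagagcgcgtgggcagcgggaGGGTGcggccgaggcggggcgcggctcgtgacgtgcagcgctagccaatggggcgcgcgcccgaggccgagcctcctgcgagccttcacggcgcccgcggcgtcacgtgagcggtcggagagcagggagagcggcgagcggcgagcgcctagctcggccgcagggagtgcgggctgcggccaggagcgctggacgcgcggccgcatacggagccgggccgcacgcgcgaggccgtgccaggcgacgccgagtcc

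The Klf3 window held 4 CACCC boxes and 1 GC box (GGGCGG). Klf5 had 2 CACCC boxes and Klf15 had 1, and neither had a GC box as searched. A CACCC box on either strand was present in 4 of the 6 windows, against 54.9% of all 33469 windows of that length and 62.0% of those of measured genes. A GC box was present in 3 of the 6 (Klf3, Klf6 and Klf7), against 33.1% of all windows and 60.6% of those of measured genes. The Klf4 window held neither. It was 45.0% GC, where the median window of measured genes was 60.7%. Whether the gene starts used for the windows are those used in these cells was not checked. Heat shock element units (GAANNTTC or TTCNNGAA) were in 0 of the 6, against 15.9% of all windows and 11.6% of those of measured genes. The cAMP response element TGACGTCA was in 0 of the 6, against 1.83% of all windows and 3.00% of those of measured genes. These matches describe letters in the windows. Klf5 and Klf15 each had a CACCC box, and their differences had opposite signs. A part of the boxes in these differences was not tested.

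By their median difference the KLF genes were at close to the same level in both libraries. A gene was called measured when its libraries averaged 1 CPM or more, and 9 of the 10 members were, Klf2 being the exception. A gene was called at least 2-fold different when log2(CPM + 1), a scale that understates differences of low genes, was higher or lower in siHsc70 by 1 or more. By that rule 0 of the 9 were higher and 0 were lower, where 2.29% of the 13518 measured genes were higher and 5.14% were lower. At 1.5-fold, 1 member was higher (Klf4) and 1 was lower (Klf15), against 9.65% and 12% of measured genes. The members' median difference was 0.14, with values from -0.60 to 0.65, and the median over all measured genes was -0.0034. Counting only, without the spread between cultures, the 95% exact interval of the ratio of siHsc70 to siSCR lay above 1 for 4 of the 9 (Klf3, Klf4, Klf5 and Klf6) and below 1 for Klf15. For all measured genes the shares were 32.5% above and 33.8% below. At this depth an interval that misses 1 is thus common among genes, and the members' counts of 4 and 1 are to be read against those shares.

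**Figure D1:**
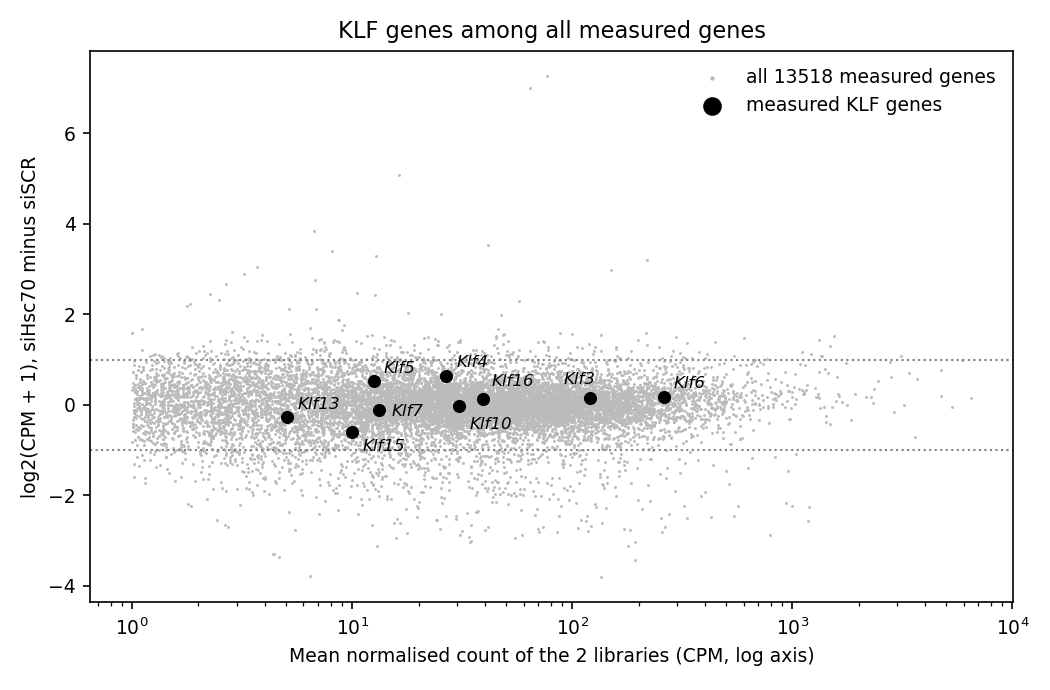
Difference of log2(CPM + 1), siHsc70 minus siSCR, against the mean normalised count (CPM, log axis) for all 13518 measured genes (grey) and the 9 measured KLF genes (black, named). Dotted lines mark a 2-fold difference. The KLF genes lie between -0.60 and 0.65, inside both lines.

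Among the measured activating members, Klf4 differed most. Klf4, one of the reprogramming factors and a regulator of cell cycle exit in many tissues, had 394 reads in siSCR and 588 in siHsc70, or 20.5 and 32.7 CPM. The ratio was 1.60 (95% counting interval 1.40 to 1.82), and 92.0% of measured genes had a lower difference. Klf5, linked to proliferation in epithelial and smooth muscle cells, had 193 and 269 reads, or 10.0 and 15.0 CPM. Its ratio was 1.49 (1.23 to 1.80), and 88.9% of measured genes lay below it. On the CPM scale both were thus higher in siHsc70 by more than counting error.

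Klf6, the member tied to myelination, was the most abundant KLF transcript and was nearly level. Its level was 243 CPM in siSCR and 276 CPM in siHsc70, from 4672 and 4969 reads. The ratio was 1.14 (1.09 to 1.18). In the same libraries the myelin gene Mbp was at 1968 and 414 CPM, while Mog, another, had a ratio of 0.986 (0.804 to 1.21). Klf7, known for roles in axon growth of sensory neurons, was at 13.7 and 12.7 CPM, with a ratio of 0.924 (0.771 to 1.11) that included 1.

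Klf2, best known from endothelial cells and lymphocytes, was close to the limit of detection. It had 10 reads in siSCR and 21 in siHsc70, or 0.52 and 1.17 CPM, where a count of 0 would allow up to 3 reads, or 0.156 and 0.167 CPM. The ratio was 2.25 with a counting interval of 1.01 to 5.34, and the mean of 0.844 CPM kept the gene out of the measured set. Of 6 endothelial genes 5 were in the table and 2 were measured: Flt1 with 109 and 76 reads (5.66 and 4.23 CPM), and Kdr, at least 2-fold lower in siHsc70, with 44 and 5 reads. Cdh5 had 1 and 0 reads and Pecam1 had 8 and 5, and the summed level was 8.99 CPM in siSCR and 5.45 CPM in siHsc70. Microglial genes summed to 2.29 and 4.62 CPM, with only Cd68 measured among 6. Of the 7 fibroblast and mural genes 4 were measured and 1, Col1a1, was at least 2-fold higher, at 24.3 and 73.8 CPM, which makes up most of the difference in the list's sum. Col1a2 and Pdgfrb were also higher in siHsc70, at ratios of 1.96 and 1.65, and Acta2 had estimated counts of 2 and 13.01. Col3a1 had 44 and 33 reads, Dcn 9 and 1, and Lum 2 and 0. Klf2, Klf4 and Klf5 were higher in siHsc70 too, and the part of these cells in those differences was not tested.

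**Figure D2:**
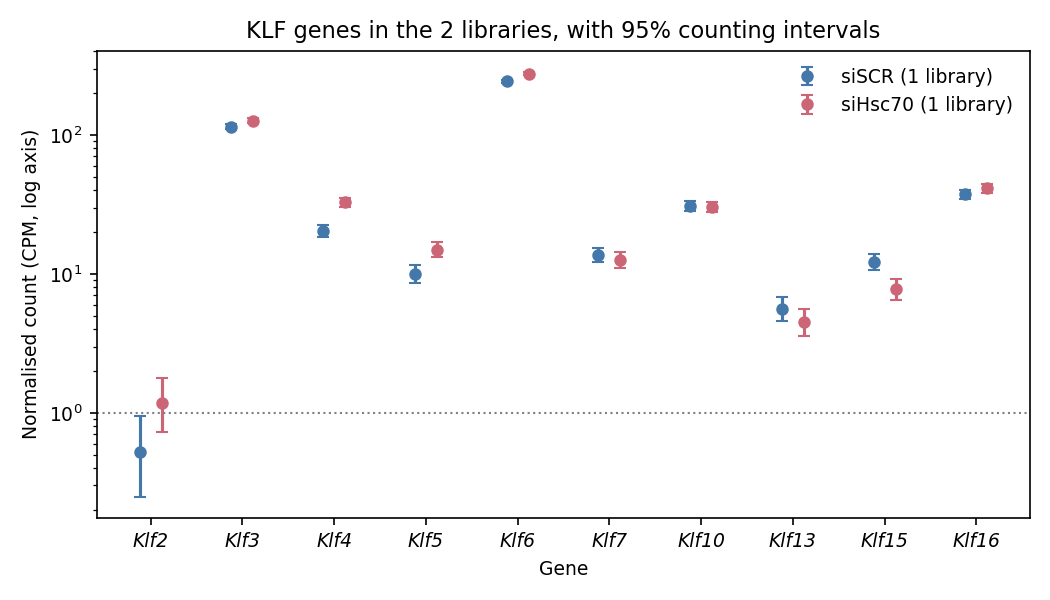
Normalised counts (CPM, log axis) of the 10 KLF genes in siSCR (blue) and siHsc70 (red), 1 library each, with 95% exact Poisson intervals for counting error. The dotted line marks 1 CPM. The intervals of the libraries are apart for Klf3, Klf4, Klf5, Klf6 and Klf15, and Klf2 lies around the line.

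The CtBP-binding member Klf3, a broadly expressed repressor, was the next most abundant. Its level was 115 CPM in siSCR and 127 CPM in siHsc70, from 2205 and 2283 reads, a ratio of 1.11 (1.04 to 1.18). The other CtBP-binding KLF that was measured, Klf12, differed in the opposite direction and by more. Its level was 35.5 CPM in siSCR and 15.0 CPM in siHsc70, from 683 and 270 reads. That is a ratio of 0.423 (0.366 to 0.488) and a log2 difference of -1.19. On log2(FPKM + 1) the difference was -0.94, from low deposited values of 3.75 and 1.47 FPKM. Klf8 had 12 and 13 reads.

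Members that bind SIN3A were at similar levels in the libraries. Klf16 was at 37.4 and 41.3 CPM in siSCR and siHsc70, with a ratio of 1.11 (0.997 to 1.23). Klf10, induced early by TGF-beta, was at 31.0 and 30.3 CPM, with a ratio of 0.977 (0.868 to 1.10). Klf13, which acts in T cells and the heart, was at 5.61 and 4.50 CPM from 108 and 81 reads, with a ratio of 0.802 (0.594 to 1.08). All of these intervals included 1, and differences within their bounds were not excluded at this depth. Among the relatives of this group, the T3-induced Klf9 was also level, at 86.7 and 89.4 CPM (ratio 1.03, 0.963 to 1.10), and its log2 difference of 0.044 became -0.095 with the deposited TPM. Klf11 was lower in siHsc70, at 14.0 and 8.79 CPM (ratio 0.628, 0.513 to 0.768).

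Klf15 was the measured member with the most downward difference. It had 235 reads in siSCR and 139 in siHsc70, or 12.2 and 7.73 CPM. The ratio was 0.633 (0.509 to 0.784), equal to a 1.58-fold lower level, and 11.7% of measured genes had a still lower difference. Klf15 and Klf4 were thus at opposite ends of the range of the measured members.

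**Figure D3:**
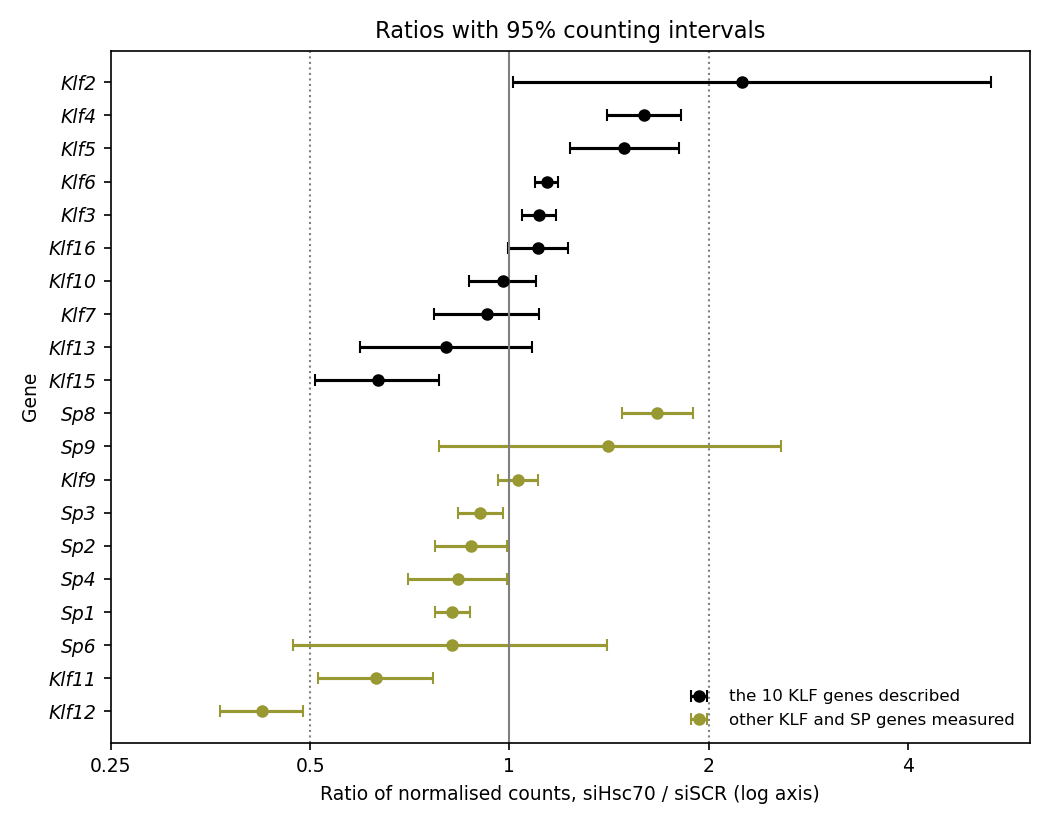
Ratio of normalised counts, siHsc70 over siSCR (log axis), with 95% exact counting intervals, for the 10 KLF genes (black) and the 10 other measured KLF and SP genes (olive). The solid line marks equal levels and the dotted lines a 2-fold difference. Klf12 is the gene whose interval lies wholly beyond a 2-fold line.

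Levels of different genes were compared by the deposited TPM, which is scaled for transcript length. Klf6 led in both libraries, at 123 TPM in siSCR and 127 TPM in siHsc70, and took 41.9% and 43.0% of the summed TPM of the 10 members. That sum was 293 TPM in siSCR and 294 TPM in siHsc70, whereas the summed CPM of the members was 488 and 549. Klf3 came next at 49.4 and 49.6 TPM, and Klf16 at 30.8 and 30.9 TPM. Klf10 was at 22.6 and 20.0 TPM, Klf13 at 21.3 and 15.5 TPM, and Klf4 at 18.5 and 26.8 TPM. The place of Klf13 depends on the short transcript length implied for it, given below. In siSCR the counting intervals of neighbours in this order overlapped for Klf10 with Klf13 and for Klf13 with Klf4. In siHsc70 Klf4 moved from rank 6 to rank 4, where its interval overlapped that of Klf16, and Klf10 again overlapped Klf13. At the low end Klf15 was at 9.90 and 5.89 TPM, Klf7 at 9.14 and 7.63 TPM, Klf5 at 7.37 and 9.24 TPM, and Klf2 at 1.08 and 2.21 TPM. Neighbours among Klf15, Klf7 and Klf5 overlapped in both libraries, and Klf15 went from rank 7 to rank 9. By TPM, 87.7% of measured genes were below Klf6 in siSCR and 22.9% were below Klf5.

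**Figure D4:**
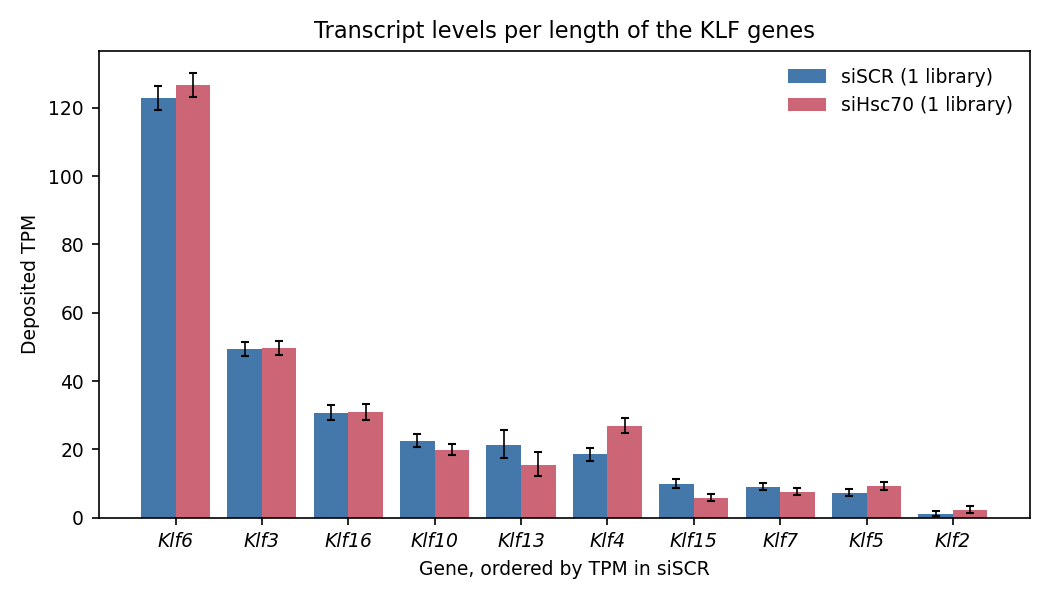
Deposited TPM of the 10 KLF genes in siSCR (blue) and siHsc70 (red), 1 library each, ordered by the siSCR level. Bars start at 0 and their error bars carry the 95% Poisson interval of the reads. Klf6, at 123 and 127 TPM, is more abundant than any other member in both libraries.

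The TPM scale also moved some of the smaller differences. On log2(TPM + 1) the median of all measured genes was -0.13, and differences of Klf3, Klf6 and Klf16 were 0.0060, 0.044 and 0.0041, above that median but close to 0. Klf4 was at 0.51 and Klf5 at 0.29 on that scale, and Klf15 at -0.66. The counting intervals of the Klf5 TPM overlapped, at 6.37 to 8.49 in siSCR and 8.17 to 10.4 in siHsc70. For Klf5 the change of scale exceeded the shift of the median, and the transcript length implied by its count and FPKM was 2.86 kb in siSCR and 3.08 kb in siHsc70, or 7.76% longer. For Klf15 the implied length was 2.59 and 2.50 kb (a change of -3.46%), and for the other 8 members it changed by less than 0.1%. A change over 3% occurred in 9.57% of 12011 genes with an FPKM of at least 1 in both libraries. Klf13 had an implied length of 0.553 kb, the shortest of the members. On that length its 108 and 81 reads give a TPM close to that of Klf10 with 597 and 545 reads. Whether 0.553 kb covers the whole Klf13 transcript was not checked, and the TPM and rank of Klf13 depend on it.

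Other genes of the family had a median below 0. Of 16 further KLF and SP genes, which bind the same GC-rich sites, 15 were in the table and 10 were measured. Of these 10, 0 were at least 2-fold higher and 1 (Klf12) was lower, against 2.29% and 5.14% of all measured genes. Their median difference was -0.18, against 0.14 for the members and -0.0034 for all measured genes. Sp1, Sp2, Sp3 and Sp4, the broadly expressed SP factors, had ratios of 0.820 (0.771 to 0.872), 0.876 (0.773 to 0.993), 0.904 (0.836 to 0.977) and 0.836 (0.704 to 0.992). Sp8, a factor of forebrain and limb development, was higher in siHsc70, at 21.9 and 36.7 CPM (ratio 1.67, 1.48 to 1.89). Sp6 and Sp9 were near the minimum, at 1.77 and 1.45 CPM and at 1.14 and 1.61 CPM. Klf1, Klf14, Sp5 and Sp7 had 10 reads or fewer in each library, and Klf17 was not found by name.

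Genes of proteins that work with KLFs differed by less than 2-fold. Of 11 corepressor and coactivator genes 0 were at least 2-fold higher or lower, against 2.29% and 5.14% of all measured genes. The median of the 11 was -0.14. Their counting interval lay below 1 for 7 and above 1 for 1, against the 33.8% and 32.5% of all measured genes. Ctbp1 and Ctbp2, the partners of KLF3, were at 269 and 267 CPM and at 52.9 and 51.3 CPM. Sin3a, the partner of the KLF10 and KLF13 group, was at 88.0 and 69.7 CPM (ratio 0.792, 0.736 to 0.853), and Sin3b at 116 and 124 CPM. Ep300, an acetyltransferase that activating KLFs recruit, was the furthest from 0 at 164 and 124 CPM (ratio 0.756, 0.716 to 0.798). Of 4 ubiquitin ligase genes reported for KLF proteins 0 passed 2-fold, and the furthest from 0 was Smurf1 at 106 and 84.8 CPM, while Wwp1, whose product targets KLF2 and KLF5, was at 99.7 and 117 CPM.

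Pathways upstream of the members were examined next. In the MEK5-ERK5-MEF2 pathway, which induces KLF2 and KLF4 in endothelium, 0 of 7 genes passed 2-fold and the median was -0.066. Its furthest member was Mapk7, encoding ERK5, at 58.5 and 46.2 CPM (ratio 0.790, 0.721 to 0.864). In the gp130-JAK-STAT3 pathway, which has been linked to KLF6, 1 of 11 genes was at least 2-fold lower and 0 were higher, with a median of 0.095. The lower gene was Lifr, the receptor gene of LIF, at 22.9 and 10.4 CPM (ratio 0.455, 0.381 to 0.541). Its log2 difference of -1.07 was -0.84 on log2(FPKM + 1), from low deposited values of 4.50 and 2.07 FPKM. Lif itself, named after its values were seen, was at 46.2 and 93.2 CPM, a ratio of 2.02 (1.86 to 2.19). Its log2 difference of 0.998 was just inside the 2-fold rule, and the list had 1 higher gene with a pseudocount of 0.1 or with upper-quartile factors. Stat3, also named after its values were seen, was at 356 and 255 CPM.

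The TGF-beta list, the pathway for which Klf10 is an early response gene, had members past 2-fold in both directions: 2 of 11 were higher and 1 was lower. Among all measured genes 2.29% were higher and 5.14% were lower by that rule. The list's median was 0.025, or -0.10 with the deposited TPM. Tgfbr2, a receptor, was at 24.1 and 50.0 CPM, and Tgif1, a corepressor of SMADs, at 47.9 and 104 CPM. The ligand gene Tgfb2 was lower, at 57.9 and 25.7 CPM. Both higher genes were under 2-fold with the deposited TPM (Tgfbr2 reached 2-fold in 6 of 9 settings). Tgfb2 was just under it on log2(FPKM + 1), at -0.98, from 12.5 and 5.85 FPKM. Smad7 and Skil, of the same list, had ratios of 0.600 (0.489 to 0.735) and 0.626 (0.584 to 0.670). Over the 11 genes the counting interval lay above 1 for 5 and below 1 for 4. Klf10 was level, at 31.0 and 30.3 CPM. A part of TGF-beta in the level of Klf10 was not tested. In the glucocorticoid list, chosen because the hormone induces Klf15, 1 of 7 genes was at least 2-fold lower and 0 were higher. The same shares of all measured genes stand beside these counts, and the median was 0.16. That gene was the kinase Sgk1, at 166 and 61.8 CPM (ratio 0.371, 0.346 to 0.397). Fkbp5, Tsc22d3 and Per1, other genes that the hormone induces and named after their values were seen, were at 24.6 and 29.4 CPM, at 14.1 and 19.9 CPM, and at 46.6 and 52.3 CPM. The differences of Fkbp5, Tsc22d3 and Per1 had the sign opposite to that of Klf15, whereas Sgk1 shared the sign of Klf15. On log2(TPM + 1) the differences of Fkbp5, Tsc22d3 and Per1 were 0.10, 0.35 and 0.042. A part of the hormone in the difference of Klf15 was not tested.

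Among 8 genes reported elsewhere as KLF2 or KLF4 targets 4 were measured, with a median of 0.38. Of these 1 was at least 2-fold higher and 0 were lower, against 2.29% and 5.14% of all measured genes. The higher gene was Thbd, encoding thrombomodulin, at 9.41 CPM in siSCR against 41.0 CPM in siHsc70 (ratio 4.36, 3.70 to 5.15). Its difference was known from earlier results of these data when the list was written. Cdkn1a, the cell cycle inhibitor p21 and the next furthest from 0, was at 738 and 1042 CPM (ratio 1.41, 1.38 to 1.44), S1pr1 at 98.0 and 118 CPM, and Txnip at 11.5 and 11.7 CPM. Nos3 had an estimated count of 4.31 in siSCR and 9.93 in siHsc70, too few to be measured. Of 6 genes reported as KLF15 targets 4 were measured and 0 passed 2-fold, with a median of 0.39. Aldh2, an aldehyde dehydrogenase gene, was the furthest from 0, at 55.2 and 101 CPM (ratio 1.84, 1.70 to 1.99), and Bcat2, for branched-chain amino acid breakdown, was at 16.0 and 23.0 CPM. Aldh2 and Bcat2 were thus higher in siHsc70, where Klf15 was lower. Gpt2 and Prodh, the remaining measured genes of this list, had counting intervals that included 1. The ratio of Gpt2 was 1.02 (0.970 to 1.08), and its difference was -0.16 with the deposited TPM. For Prodh the ratio was 1.30 (0.899 to 1.87). A part of Klf15 in the levels of these genes was not tested.

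**Figure D5:**
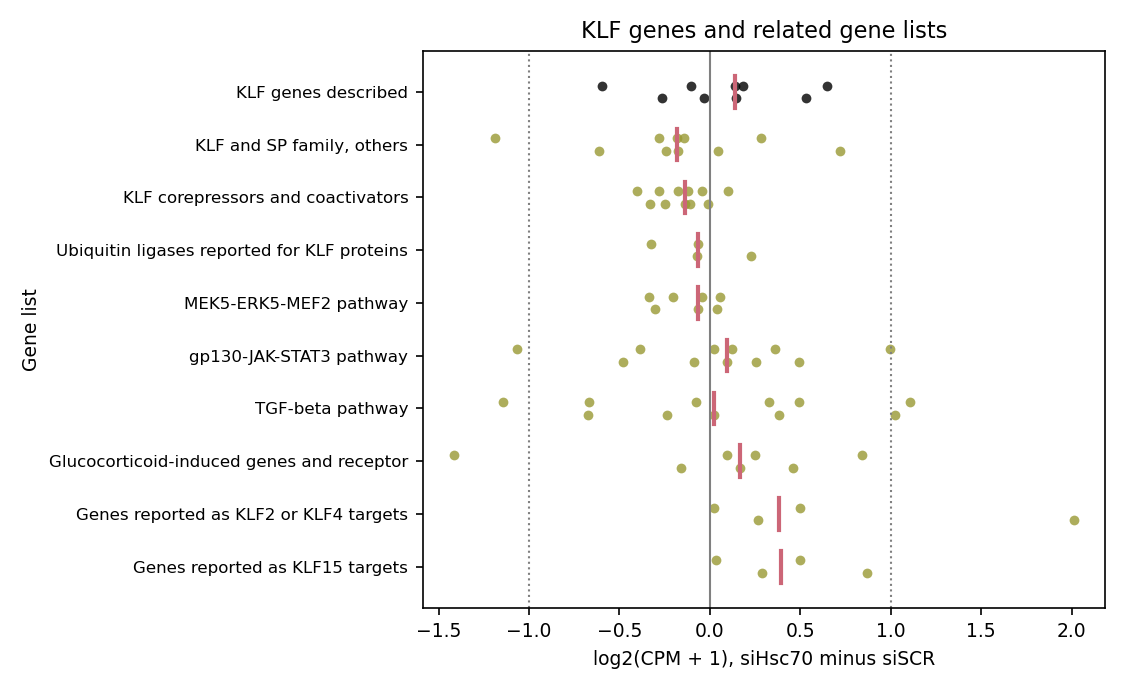
Difference of log2(CPM + 1), siHsc70 minus siSCR, for each measured gene of the KLF set (black) and of 9 related lists (olive), with each list's median as a red bar. Dotted lines mark a 2-fold difference. The KLF set stays between -0.60 and 0.65, while the TGF-beta list has points beyond both lines.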

How the data were processed

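RNA-seq of 2 samples, 1 library per group, was used from 1 table with 6 value columns, matched to samples by the siRNA named in each column. Per the file headers it holds the authors' read counts (estimated counts, of which 26.5% in siSCR and 26.7% in siHsc70 are not whole within 0.001), deposited FPKM values and deposited TPM values. Aligner, annotation and strandedness were not given in the sources used here, and reads of overlapping or antisense genes could not be told apart. The submitters' processing notes name the mouse build mm39, yet 16783 of the 18049 gene IDs are in a rat RefSeq table (GRCr8), so no coordinates are given other than those of the RefSeq promoter windows, on GRCr8.

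Counts were rounded and scaled to CPM with TMM factors (edgeR 4.0.16, R 4.3.3) of 1.01 for siSCR and 0.992 for siHsc70. Ratios have 95% Clopper-Pearson intervals, and levels exact Poisson intervals (scipy 1.17.1). Both cover counting error only, since 1 library per group gives no spread between cultures. They treat reads as independent, which PCR copies are not. The implied length is count over FPKM and over the total count (scaled like CPM). The procedure was run on simulated Poisson counts without spread between cultures. That is the model the intervals assume, so the run checks the calculation and not the fit to these libraries. Alternatives were 9: another pseudocount, 2 other minimum means, 3 scalings (DESeq2 1.42.0 among them), the deposited TPM and FPKM, and a 1.5-fold rule. With the deposited TPM and FPKM a value of 1 was also added before the log2, which understates differences of genes with low values in those units.

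The members, the 16 gene lists and markers, and the rules were chosen with earlier results of these data known. A few genes of these lists were left out and are not reported here. The rule for named genes took all members, the measured KLF and SP relatives, the markers, and of each list up to 4 genes past 2-fold, or the one furthest from 0. All other list genes in the text (such as Ctbp1, Ctbp2, Sin3a, Sin3b, Wwp1, S1pr1, Cdkn1a, Txnip, Nos3, Bcat2 and the relatives with few reads) fall outside it and were named after their values were seen. With 2 libraries no likeness between gene patterns was computed.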

Additional observations from a re-analysis of the deposited data

How the results depend on the processing

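No member of the KLF set reached 2-fold under another pseudocount, minimum mean, scaling, the deposited TPM or the deposited FPKM, except Klf2, which is below 1 CPM on average and was at 1.03 with a pseudocount of 0.1. With a 1.5-fold rule 1 member was higher and 1 was lower. The members' median ranged from 0.0041 (deposited TPM) to 0.20 (upper-quartile factors), and that of all measured genes from -0.13 to 0.055 under the same settings. Klf4 ranged from 0.51 to 0.71, Klf5 from 0.29 to 0.59 and Klf15 from -0.66 to -0.50. Klf10 changed sign, at 0.028 with upper-quartile factors, and all other measured members kept theirs. In each setting 5 of the 9 measured members lay above the median of all genes. Klf4 (with the deposited TPM) and Klf15 (with the deposited FPKM) fell short of 1.5-fold (0.58 on the log2 scale) at the range ends nearest 0. For Klf15 that end is on log2(FPKM + 1), from 4.76 FPKM in siSCR and 3.07 in siHsc70. The added 1 understates the difference of such low values. Over all genes, 310 passed 2-fold upward, against 518 at a pseudocount of 0.1, 189 with the deposited TPM and 202 with the deposited FPKM. Leaving out a library leaves no comparison. No paired analysis was possible because each group is 1 library. Depth limits Klf2 (10 and 21 reads) and Klf13 (108 and 81 reads) most.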
